A study of Rattus norvegicus with 6 samples.

Results

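The genes described here are those of class I and class II antigen presentation in the rat. They comprise every gene whose symbol on the array starts with RT1-, the name of the rat major histocompatibility complex (MHC), together with B2m, Tap1, Tap2, Tapbp, Psmb8, Psmb9, Psmb10, Cd74 and Ciita. The set was taken up because 2 of its genes, RT1-CE7 and RT1-N2, were higher with alcohol in the same 6 arrays, so the alcohol differences of the set are given as a description and not as a test. It holds 53 genes, 44 of them named RT1- and 9 listed by name, on 59 array rows among 26419 rows that carry 24215 named genes. Where a gene had more than 1 row, the row with the highest mean was used.

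The study measured gene expression in rats after acute alcohol intoxication. All rats were male Sprague-Dawley animals of 8 to 10 weeks and 240 to 260 g, fasted for 12 hours and then dosed by gavage. The alcohol group received 40% alcohol at 15 ml/kg, and the control group received saline in the same volume. Each group had 9 rats, whose tissue, labelled cerebellum, was combined into 3 pools of 3 rats, and the total RNA of each pool was profiled with a Cy3 label on 1 NimbleGen array. The time between gavage and tissue collection is not given in the sources used here. Spread between pools is the only replicate error available, since rats within a pool cannot be told apart.

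Class I molecules are heavy chains that pair with beta-2 microglobulin and carry peptides from inside the cell to the surface, where CD8 T cells and natural killer cells read them. The peptides are cut by the proteasome, whose interferon-inducible subunits form the immunoproteasome, and are pumped into the endoplasmic reticulum by the TAP transporter. Class II molecules are pairs of an alpha and a beta chain that carry peptides from endocytosed material for CD4 T cells, and the invariant chain, CD74, escorts them until DM exchanges it for peptide. In the brain, neurons and glia normally carry little of either class, endothelial cells carry class I, and class II is mainly a product of microglia and of macrophages at the borders. The rat complex holds many class I genes that are close copies of each other. A probe for one can therefore bind transcripts of another, and the identity of each heavy chain row below is uncertain to that extent.

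Levels are log2 RMA intensities, where RMA is the robust multi-array average of the 5 probes in each row. Differences are the alcohol mean minus the control mean on that scale, and SE is the standard error from the fit of all rows with limma. An intensity of 50, which is 5.64 on the log2 scale, was used as a floor. Of the 53 genes, 32 reached it on all 6 arrays, 15 on some arrays and 6 on none. Across arrays, 66.9% to 68.8% of all rows reached the floor.

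The pools were not alike in tissue. In alcohol pool 2 and control pool 1 the markers of cerebellar neurons were nearly missing. Pcp2, a Purkinje cell gene, stood at 13.54, 5.27 and 13.42 in alcohol pools 1 to 3, against 5.65, 13.60 and 13.44 in control pools 1 to 3. Those 2 pools instead held genes of brainstem serotonin neurons, such as Tph2, with 9.96 in alcohol pool 2, 10.61 in control pool 1 and 4.68 to 5.56 in the other 4. Differences are over all 6 pools unless stated otherwise. For the members that the results turn on they are also given over the 4 cerebellar pools and for the pair, which is alcohol pool 2 minus control pool 1. Fewer cells of a type and less RNA per cell cannot be told apart in such bulk tissue.

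Class I genes, their partners and class II genes are known to be controlled through partly different elements just before the start of transcription. RefSeq's promoter table for the GRCr8 assembly held an entry for 44 of the 53 genes. It held none for RT1-CE7, RT1-N1, RT1-CE14, RT1-EC2, RT1-Cl, RT1-M2, RT1-M1-4, RT1-DMb and Ciita. In the 250 bases before the start, both strands were searched for 4 short patterns. The kappaB letters GGGGATTCC, part of a known class I enhancer element, were present in 9 of 27 class I heavy chain promoters. They were present in 81 of all 33469 promoters (0.242%), and 11.1% of the promoters with these letters belonged to class I heavy chains of the set. The heavy chain genes are close copies of each other, so the 9 matches are not independent. This pattern and the interferon pattern below were shortened after a first search with longer forms. The interferon response letters GAAANNGAA were present in 5 of 7 promoters of the class I partners (B2m, Tap1, Tap2, Tapbp and Psmb10), in 3 heavy chains (RT1-N3, RT1-S2 and RT1-S3) and in 8.12% of all promoters. The Y box letters CTGATTGG, which bind the NF-Y factor, were present in 6 of 9 class II promoters, in 9 heavy chains and in 3.19% of all promoters. The core of the X box, searched as AGCAACAG, was present in RT1-Da and RT1-Ha and in 1.65% of all promoters. None of these patterns overlapped another in the promoters printed here, apart from 2 interferon response matches that overlap each other in Tapbp.

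The promoters shown belong to genes whose values are described below: heavy chains with and without the kappaB letters, 2 partners, and a class II chain. Each line gives 200 bases before the start, 5′ to 3′ on the strand of the gene, with the matches in capitals. RT1-A1 is at chr20:4907009-4907208 on the plus strand, RT1-CE10 at chr20:3384980-3385179 on the minus strand, RT1-CE4 at chr20:3509157-3509356 on the minus strand and RT1-N2 at chr20:2646130-2646329 on the plus strand. B2m is at chr3:129549130-129549329 on the plus strand, Tapbp at chr20:4967878-4968077 on the minus strand and RT1-Da at chr20:4515215-4515414 on the plus strand.
RT1-A1: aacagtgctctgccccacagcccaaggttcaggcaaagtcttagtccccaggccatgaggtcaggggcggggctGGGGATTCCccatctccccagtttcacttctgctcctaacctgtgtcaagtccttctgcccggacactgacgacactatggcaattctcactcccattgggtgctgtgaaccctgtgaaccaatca
RT1-CE10: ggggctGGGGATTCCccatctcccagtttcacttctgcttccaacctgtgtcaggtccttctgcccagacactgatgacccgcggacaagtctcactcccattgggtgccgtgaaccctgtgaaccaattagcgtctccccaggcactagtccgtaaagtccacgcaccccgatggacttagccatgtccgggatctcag
RT1-CE4: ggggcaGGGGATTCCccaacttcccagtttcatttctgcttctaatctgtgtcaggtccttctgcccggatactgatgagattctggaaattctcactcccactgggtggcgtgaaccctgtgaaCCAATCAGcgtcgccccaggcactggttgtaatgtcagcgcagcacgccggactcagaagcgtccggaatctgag
RT1-N2: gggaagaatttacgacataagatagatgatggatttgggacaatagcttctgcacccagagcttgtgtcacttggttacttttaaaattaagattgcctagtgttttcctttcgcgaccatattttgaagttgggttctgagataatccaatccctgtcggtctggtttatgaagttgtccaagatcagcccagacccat
B2m: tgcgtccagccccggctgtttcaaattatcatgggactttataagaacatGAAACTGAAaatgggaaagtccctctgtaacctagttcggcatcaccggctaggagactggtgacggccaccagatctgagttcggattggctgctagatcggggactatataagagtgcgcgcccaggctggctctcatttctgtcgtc
Tapbp: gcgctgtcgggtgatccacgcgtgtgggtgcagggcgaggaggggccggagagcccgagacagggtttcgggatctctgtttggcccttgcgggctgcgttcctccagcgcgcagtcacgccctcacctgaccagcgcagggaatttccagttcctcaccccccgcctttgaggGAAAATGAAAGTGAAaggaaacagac
RT1-Da: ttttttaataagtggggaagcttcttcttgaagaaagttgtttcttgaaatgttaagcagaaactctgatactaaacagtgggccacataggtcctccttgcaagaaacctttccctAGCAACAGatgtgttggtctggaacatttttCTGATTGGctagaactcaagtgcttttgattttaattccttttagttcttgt
In RT1-A1 and RT1-CE10 the capitals are the kappaB letters, and RT1-CE4 has these and, further downstream on the other strand, the Y box. The RT1-A1 window ends in ccaatca, all but the last letter of the Y box on that strand. Matches that cross the annotated start were not searched, so the Y box counts depend on where the start is placed. RT1-N2 has none of the 4 patterns in this window. B2m has 1 and Tapbp has 2 interferon response matches. RT1-Da has the X box core followed by the Y box. A match is a description of the letters, not evidence that a factor was bound.

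Over the whole set, alcohol pools tended to read higher, although no gene passed the test. With limma and Benjamini-Hochberg adjustment over all 26419 rows, 0 rows and 0 of the 53 genes were called at an adjusted p of 0.05 (percent called 0). Without adjustment, 9 of the 53 genes were higher and 3 lower at p under 0.05, where 2.65% of all rows were higher and 1.25% lower. The alcohol mean was above the control mean in 40 of the 53 genes, and in 45.9% of all rows. The median difference was 0.36 over the 53 genes and -0.02 over all rows. Among the 32 genes at the floor on every array it was 0.39, with 28 higher and 4 lower (42.1% of such rows were higher).

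In 9 of these 32 genes the 3 alcohol values lay above all 3 control values, and in 0 below (2.71% and 4.16% of the 15882 rows at the floor on every array). Over all 53 genes, 12 lay above and 4 below (4.39% and 4.36% of all rows). Since the set was chosen from this contrast, nothing is read from these shares.

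**Figure D1:**
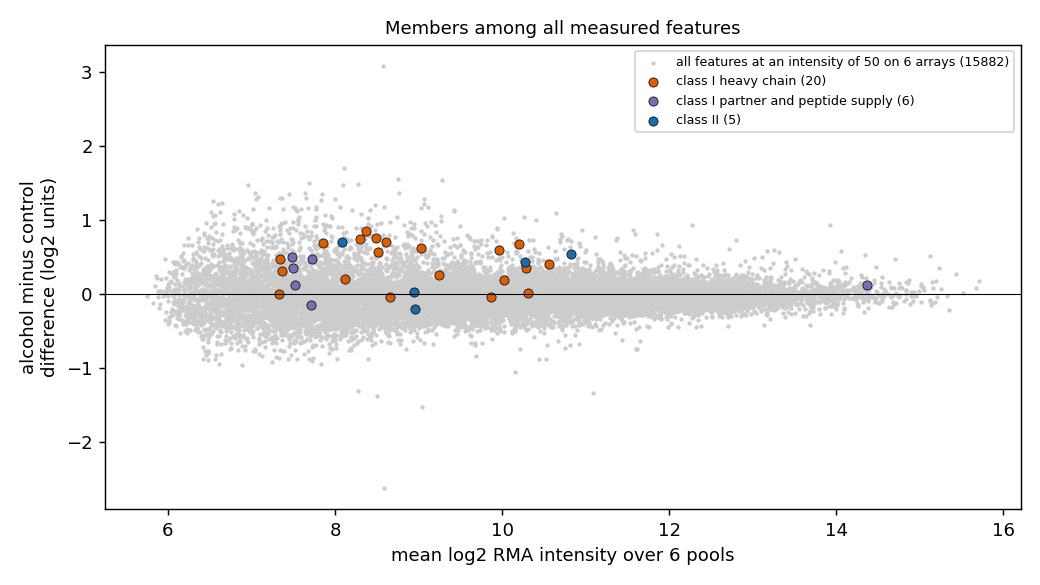
Mean log2 RMA intensity over 6 pools (x axis) and alcohol minus control difference in log2 units (y axis) for the 15882 rows at an intensity of 50 on all arrays (grey), with 20 class I heavy chains, 6 class I partners and 5 class II genes in colour. Most coloured points lie above 0, between -0.20 and 0.86, within the range of the grey points.

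The class I heavy chains held 8 of the 9 separated genes (2.71% of all rows at the floor on every array separated upward). RT1-CE7 and RT1-N2, which chose the set, are among the 8. Heavy chains are close copies of each other, so their rows may not be independent. Of 34 heavy chain genes, 20 reached the floor on all arrays. Of these, 18 had a higher mean with alcohol and 2 a lower one (42.1% of all such rows were higher). Their median difference was 0.44. In each of the 8 the alcohol pools were higher than the control pools without overlap, by 1.39-fold to 1.81-fold on the mean of the log values.

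RT1-CE7, a class I gene of the CE region, gave 8.94, 9.01 and 8.94 in alcohol pools 1 to 3, against 8.18, 8.16 and 8.42 in control pools 1 to 3. The lowest alcohol value was 0.52 above the highest control value, the widest such gap among the 32 genes. The difference was 0.71 (SE 0.17, 1.64-fold), with 0.65 over the 4 cerebellar pools and 0.83 between the remaining pair. RT1-N2, a nonclassical class I gene of the N group, gave 8.54, 8.69 and 8.77 in the alcohol pools, against 8.07, 7.99 and 7.70 in the control pools. Its values did not overlap either, with a gap of 0.47. The difference was 0.75 (SE 0.18, 1.68-fold), with 0.81 over the 4 pools and 0.62 in the pair. These 2 genes chose the set.

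RT1-N1, another gene of the N group, gave 10.44, 10.69 and 10.47 with alcohol, against 10.18, 9.52 and 9.88 in controls, a difference of 0.67 (SE 0.22), with 0.76 over the 4 pools and 0.51 in the pair. All alcohol values were above all control values, most closely in control pool 1. RT1-A1, a classical class I gene of the kind that presents peptides to CD8 T cells, gave 10.25, 10.53 and 10.00 with alcohol, against 9.81, 9.53 and 9.64 in controls, a difference of 0.60 (SE 0.21), with 0.54 over the 4 pools and 0.72 in the pair. Alcohol pool 2 was highest and control pool 2 lowest, and the groups did not overlap. RT1-CE14 gave 9.24, 9.67 and 9.12 with alcohol, against 8.84, 8.49 and 8.81 in controls, a difference of 0.63 (SE 0.22), with 0.53 over the 4 pools and 0.83 in the pair. A dimmer second row of RT1-CE14 read 5.97, 6.09 and 6.18 with alcohol, against 5.55, 5.17 and 5.62 in controls, and was separated in the same direction.

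RT1-CE10 had the highest difference of the 20 heavy chains. It gave 8.67, 8.50 and 9.24 with alcohol, against 7.91, 7.55 and 8.37 in controls, a difference of 0.86 (SE 0.30, 1.81-fold), with 0.99 over the 4 pools and 0.59 in the pair. Alcohol pool 3 stood highest and control pool 3 was the nearest control. RT1-EC2 gave 8.78, 9.12 and 8.69 with alcohol, against 8.63, 7.25 and 8.42 in controls, a difference of 0.76 (SE 0.39), with 0.90 over the 4 pools and 0.49 in the pair. Its groups were only 0.06 apart, and control pool 2 was more than 1 log2 unit below every other pool. RT1-CE4 gave 7.78, 7.45 and 7.50 with alcohol, against 7.43, 6.73 and 7.14 in controls, a difference of 0.47 (SE 0.24). Its closest values, alcohol pool 2 and control pool 1, differed by 0.02, so the separation of this row rests on little. The difference over the 4 pools was 0.70. A second row of RT1-CE4 gave 5.33, 5.29 and 5.40 with alcohol, against 4.28, 5.16 and 4.83 in controls. It was separated in the same direction but lay under the floor on all arrays.

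In RefSeq's annotation several of these genes share ground. The bounds of RT1-CE7 overlap those of RT1-CE4 and RT1-CE5, and RT1-CE10 overlaps RT1-CE11. RT1-CE14 overlaps RT1-CE12, which also overlaps RT1-CE13, and RT1-O1 overlaps RT1-S2. How far their rows read the same transcripts was not tested, as probe sequences were not used here.

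**Figure D2:**
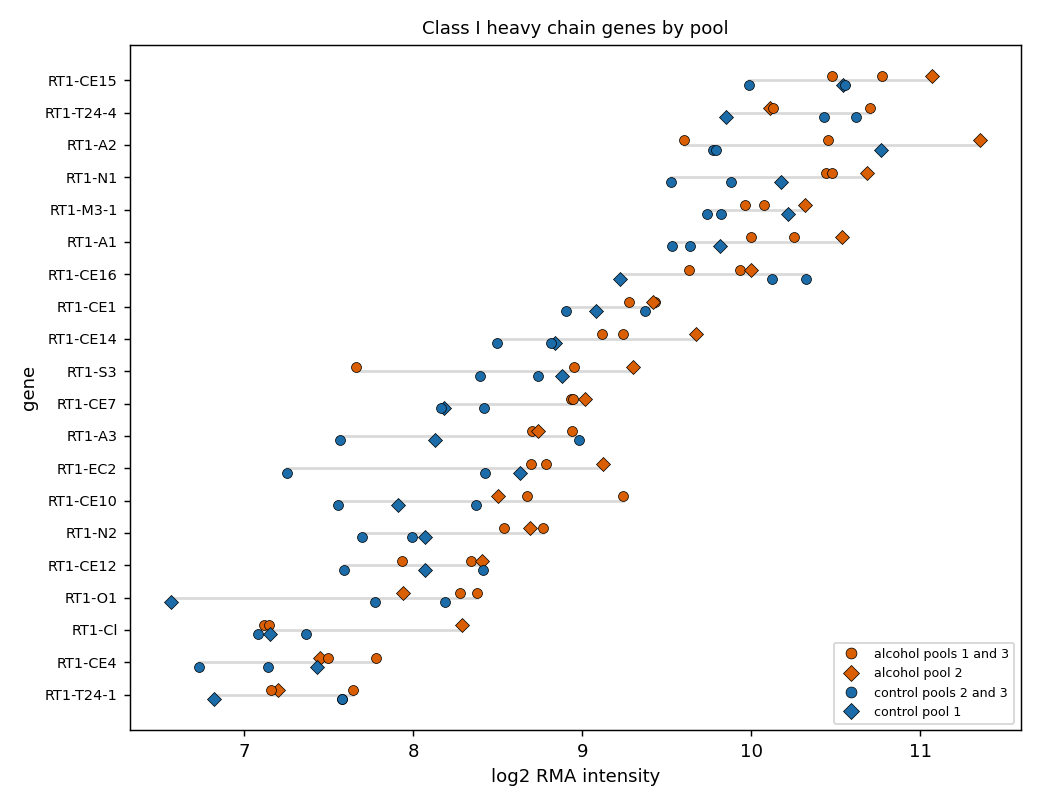
Log2 RMA intensity (x axis) of the 20 class I heavy chain genes at the floor on all arrays (rows), with alcohol pools in orange above control pools in blue and diamonds for alcohol pool 2 and control pool 1. The groups are apart in RT1-N1, RT1-A1, RT1-CE14, RT1-CE7, RT1-EC2, RT1-CE10, RT1-N2 and RT1-CE4, and overlap in the other 12.

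The other 12 heavy chains overlapped between groups. RT1-CE15 gave 10.77, 11.07 and 10.48 with alcohol, against 10.54, 9.98 and 10.55 in controls, a difference of 0.41 (SE 0.25). Alcohol pools 1 and 2 stood above all controls and alcohol pool 3 just below 2 of them. Its second row, at 8.69, 8.60 and 8.45 with alcohol, against 8.03, 8.21 and 8.61 in controls, also overlapped. RT1-A2, a second classical class I gene, gave 10.45, 11.35 and 9.60 with alcohol, against 10.77, 9.77 and 9.79 in controls, a difference of 0.36 (SE 0.50). Here alcohol pool 2 and control pool 1 were the high pools in their groups, and these are the 2 pools without cerebellar markers. RT1-A3, another gene of the A region, gave 8.70, 8.74 and 8.94 with alcohol, against 8.13, 7.57 and 8.98 in controls, a difference of 0.57 (SE 0.37). Control pool 3 was the highest of all 6, and control pool 2 was the lowest.

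RT1-M3-1, the rat gene for a nonclassical molecule that binds formylated peptides in the mouse, gave 9.96, 10.32 and 10.07 with alcohol, against 10.22, 9.74 and 9.82 in controls. Its difference was 0.19 (SE 0.21), and the 2 pools without cerebellar markers were highest. RT1-O1 gave 8.28, 7.94 and 8.38 with alcohol, against 6.57, 7.77 and 8.19 in controls, a difference of 0.69 (SE 0.43) in which control pool 1 was far below the rest. RT1-Cl gave 7.12, 8.29 and 7.15 with alcohol, against 7.15, 7.08 and 7.37 in controls. Its difference of 0.32 (SE 0.35) rested on alcohol pool 2 alone and was -0.09 over the 4 cerebellar pools. RT1-CE1 and RT1-CE12 had differences of 0.26 (SE 0.19) and 0.21 (SE 0.27).

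The 4 remaining heavy chains differed by less than 0.05. RT1-T24-4 gave 10.70, 10.11 and 10.13 with alcohol, against 9.85, 10.62 and 10.43 in controls, and its lowest values were those of the 2 pools without cerebellar markers. Its difference was 0.02 (SE 0.28). RT1-T24-1 had a difference of 0.01 (SE 0.28). RT1-S3 gave 8.95, 9.30 and 7.66 with alcohol, against 8.88, 8.74 and 8.39 in controls, a difference of -0.03 (SE 0.44), with alcohol pool 3 far below the other 5. RT1-CE16 gave 9.93, 10.00 and 9.63 with alcohol, against 9.23, 10.32 and 10.12 in controls. Its difference of -0.04 (SE 0.32) joined -0.44 over the 4 cerebellar pools with 0.77 in the pair.

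A further 11 heavy chains reached the floor on only some arrays, and no fold is given for them. RT1-M5, a gene of the M region, gave 6.96, 7.21 and 7.68 with alcohol, against 6.26, 5.07 and 5.41 in controls. All alcohol pools were above the floor and 2 control pools below it. RT1-M5 is the symbol of 2 gene identifiers on the array. The other member row, at 5.28, 5.22 and 5.14 with alcohol, against 4.99, 5.92 and 5.01 in controls, overlapped between groups. A further row, named RT1-M5 only in current RefSeq, has the same gene identifier as the brighter row. It gave 4.16, 4.55 and 4.73 with alcohol, against 4.34, 4.21 and 4.19 in controls. That row was under the floor on all arrays and overlapped, so it did not repeat the difference of the brighter row. RT1-CE11 gave 6.54, 7.41 and 6.80 with alcohol, against 5.55, 5.17 and 6.36 in controls, without overlap. RT1-CE5 gave 6.43, 6.92 and 6.54 with alcohol, against 6.51, 5.10 and 5.37 in controls. It overlapped through control pool 1.

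RT1-M10-1, whose mouse relatives are expressed in vomeronasal neurons, went the other way, with 4.98, 4.82 and 4.88 with alcohol, against 5.22, 6.07 and 6.27 in controls. Every alcohol value of RT1-M10-1 was under the floor, as was control pool 1. The remaining 7, RT1-S2, RT1-CE13, RT1-CE3, RT1-M1-2, RT1-M2, RT1-M6-2 and RT1-M6-1, overlapped between groups. RT1-N3, RT1-CE2 and RT1-M1-4 stayed under the floor on every array.

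By region, all 3 RT1-A genes were at the floor on every array and higher with alcohol, as were 7 of the 8 such RT1-CE genes, with a median difference of 0.57 for the A and 0.44 for the CE genes. Only 1 of 8 RT1-M genes, RT1-M3-1, reached the floor throughout. Across the 20 heavy chains, alcohol pool 2 was the highest of the 6 pools in 10, and control pool 2 the lowest in 13.

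The partners of class I were more mixed. Of 6 genes at the floor on all arrays, 5 had a higher mean with alcohol and 1 a lower one (42.1% of all such rows were higher). The median difference was 0.24. Tapbp, tapasin, which bridges empty class I molecules to the transporter, gave 7.83, 7.56 and 7.81 with alcohol, against 6.95, 7.51 and 7.22 in controls. The groups were 0.05 apart at their closest, the only partner that separated, and the difference was 0.51 (SE 0.21), with 0.45 over the 4 cerebellar pools and 0.61 in the pair. B2m, the light chain that every class I molecule needs, gave 14.44, 14.56 and 14.28 with alcohol, against 14.44, 14.27 and 14.20 in controls. Its values spread over only 0.36 log2 units in all 6 pools, and the difference of 0.12 (SE 0.17) was smaller than its error.

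Among the genes of peptide supply, several were highest in the 2 pools without cerebellar markers. Psmb8, an immunoproteasome subunit, gave 7.89, 8.85 and 7.14 with alcohol, against 8.59, 6.38 and 7.50 in controls, a difference of 0.47 (SE 0.66), with 0.58 over the 4 pools and 0.26 in the pair. Tap1, one chain of the peptide transporter, gave 7.52, 8.53 and 6.88 with alcohol, against 8.56, 7.40 and 7.40 in controls, a difference of -0.14 (SE 0.51), with -0.20 over the 4 pools and -0.04 in the pair. In both genes alcohol pool 2 and control pool 1 were above the other 4 pools. Psmb9, the subunit encoded beside Tap1, gave 6.66, 7.50 and 5.44 with alcohol, against 6.96, 6.07 and 6.64 in controls, with the same 2 pools on top and alcohol pool 3 under the floor.

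Tap2, the partner chain of Tap1, did not share that pattern. It gave 7.45, 7.55 and 7.74 with alcohol, against 6.77, 8.08 and 7.54 in controls, a difference of 0.12 (SE 0.35), with the lowest and the highest value both among controls. It was -0.21 over the 4 pools and 0.78 in the pair. Psmb10, the third immunoproteasome subunit, gave 7.88, 7.60 and 7.56 with alcohol, against 6.99, 7.65 and 7.33 in controls, a difference of 0.36 (SE 0.23). Only control pool 2 reached into the alcohol values.

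Class II levels varied more by pool than those of the heavy chains, and in no class II gene at the floor did the groups separate. Of all rows at the floor on every array, 2.71% lay above and 4.16% below. With only 5 class II genes there, their 0 does not differ from that background. Of 11 class II genes, 5 reached the floor on all arrays, with 4 higher and 1 lower by mean and a median difference of 0.43. Cd74, the invariant chain, gave 10.74, 12.24 and 10.29 with alcohol, against 11.28, 9.52 and 10.85 in controls. Alcohol pool 2 was highest, control pool 1 second and control pool 2 lowest, and the difference of 0.54 (SE 0.65) was smaller than its error, with 0.33 over the 4 pools and 0.96 in the pair. RT1-Da, the alpha chain of the rat class II molecule that corresponds to human HLA-DR, gave 10.10, 11.67 and 9.70 with alcohol, against 10.78, 9.16 and 10.23 in controls. It took the same order of pools, with a difference of 0.43 (SE 0.63), of 0.20 over the 4 pools and of 0.89 in the pair. RT1-Db1, a beta chain of that molecule, gave 8.30, 9.19 and 7.83 with alcohol, against 8.42, 6.92 and 7.88 in controls, a difference of 0.70 (SE 0.50), again with control pool 2 lowest. The difference of RT1-Db1 was 0.29 without control pool 2, 0.32 without alcohol pool 2 and 1.04 without control pool 1.

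The exchange molecule DM showed little or no alcohol difference. RT1-DMa gave 8.79, 9.73 and 8.38 with alcohol, against 9.64, 8.66 and 8.49 in controls, a difference of 0.03 (SE 0.45), with 0.01 over the 4 pools and 0.09 in the pair. RT1-DMb gave 8.83, 10.16 and 7.57 with alcohol, against 9.77, 8.69 and 8.72 in controls, a difference of -0.20 (SE 0.68), with -0.50 over the 4 pools and 0.39 in the pair. In both, alcohol pool 2 and control pool 1 were highest and alcohol pool 3 lowest, so DM did not take its minimum in control pool 2 as the chains it serves did.

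RT1-Ba, the alpha chain of the molecule that corresponds to human HLA-DQ, gave 6.31, 7.83 and 5.86 with alcohol, against 6.86, 5.44 and 6.41 in controls. It followed the order of Cd74, with control pool 2 under the floor. RT1-Bb, its beta chain, gave 5.86, 6.32 and 5.79 with alcohol, against 5.74, 4.60 and 5.31 in controls. The groups lay apart by 0.05 and 2 control pools were under the floor. RT1-DOb, a chain of DO, which restrains DM mainly in B cells, gave 5.05, 5.76 and 5.11 with alcohol, against 6.04, 5.87 and 6.02 in controls, lower in every alcohol pool. Alcohol pools 1 and 3 of RT1-DOb were under the floor. RT1-DOa, RT1-Ha and Ciita, the master activator of class II transcription, were under the floor on all 6 arrays.

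**Figure D3:**
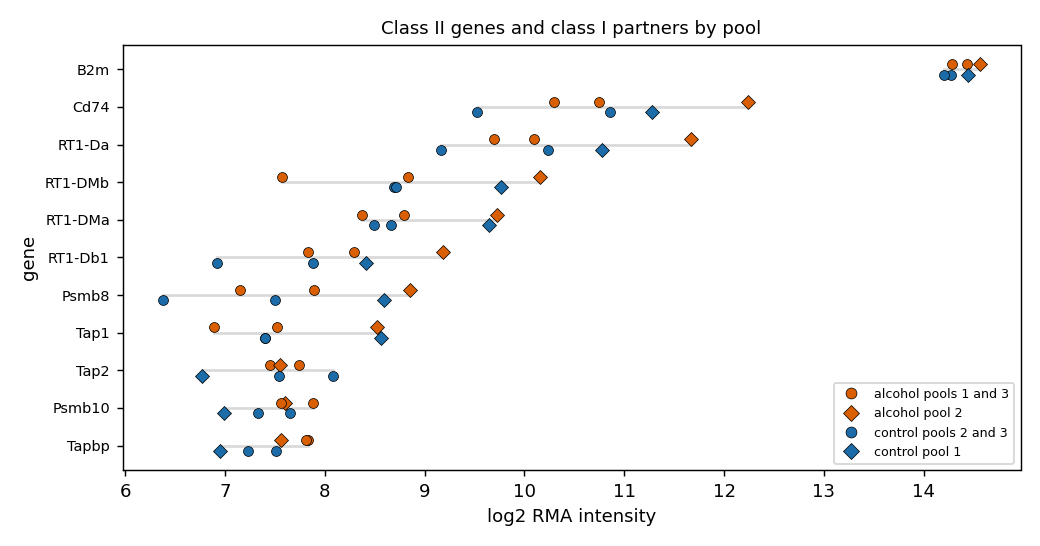
Log2 RMA intensity (x axis) of 6 class I partners and 5 class II genes (rows), with alcohol pools in orange above control pools in blue and diamonds for alcohol pool 2 and control pool 1. In all 5 class II genes both diamonds lie right of every circle, and only Tapbp has its groups apart.

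The 2 pools without cerebellar markers were both above the other 4 in 5 of 5 class II genes, in 3 of 6 class I partners (B2m, Psmb8 and Tap1) and in 2 of 20 heavy chains (RT1-A2 and RT1-M3-1). They were both below in RT1-T24-4. Over the 15882 rows at the floor, 30.9% were above and 32.4% below in this sense. Markers of microglia and macrophages moved with these values. All 13 measured markers of that list were highest in the same 2 pools, and their summed intensity was 7875, 17322 and 4956 in alcohol pools 1 to 3, against 13761, 6343 and 6323 in control pools 1 to 3. Endothelial markers, 10 of 10 highest in those pools, summed to 13968, 24377 and 12554 with alcohol, against 21634, 13294 and 13806 in controls. Oligodendrocyte markers, 7 of 7 highest in those pools, summed to 98942, 177040 and 75660 with alcohol, against 180716, 79690 and 67544 in controls, and 4 of 6 astrocyte markers were also highest there. The shift between kinds of pool was thus not particular to microglial markers, and the part of any of these cells in the class II and heavy chain values was not tested.

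Measured against the mean of the 6 pools, class II genes stood at a median of -0.12, 1.20 and -0.57 in alcohol pools 1 to 3, against 0.50, -1.11 and -0.21 in control pools 1 to 3. Microglial markers stood at -0.21, 1.04 and -0.71 with alcohol, against 0.86, -0.37 and -0.49 in controls. Control pool 2 was thus lower for class II than for the microglial markers. Heavy chains moved less, at 0.24, 0.35 and 0.04 with alcohol, against -0.18, -0.44 and -0.04 in controls, and were positive in all 3 alcohol pools and negative in all 3 control pools. All 32 members at the floor together stood at 0.21, 0.40 and -0.04 with alcohol, against -0.08, -0.33 and -0.18 in controls. For the whole set, alcohol pool 3 was thus not above the mean of the 6 pools and lay close to control pool 1.

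Lymphocyte markers were low. None of the 6 measured T and B cell markers reached the floor on all arrays, Cd3g and Cd2 were below it on all 6, and the list summed to 206 to 350 in alcohol pools and to 199 to 266 in control pools. Of 8 markers of perivascular macrophages and dendritic cells, Clec9a and Xcr1 were below the floor everywhere, and the list summed to 3692 to 7018 in alcohol pools and to 4541 to 6569.7 in control pools. That sum rests mainly on Flt3, which was lowest in the 2 pools without cerebellar markers, whereas the macrophage marker Mrc1 was highest there, at 7.51, 8.80 and 7.60 with alcohol, against 9.13, 8.24 and 8.21 in controls. The sum therefore does not follow the macrophage markers of the list. Alcohol pool 1 also held far more Ttr, a choroid plexus gene, which was at 13.67, 9.04 and 7.65 with alcohol, against 6.78, 7.55 and 6.78 in controls. Its part in any value here was not tested.

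**Figure D4:**
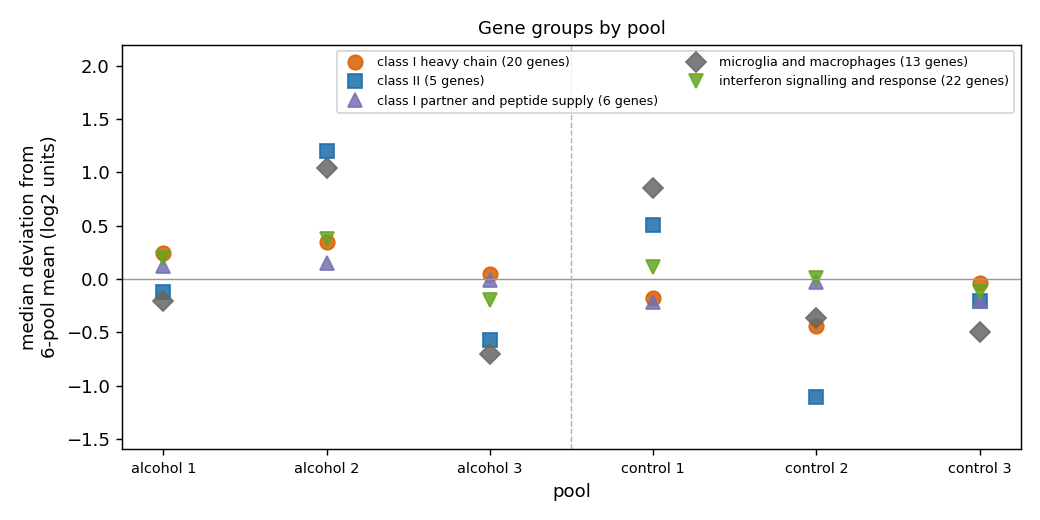
Median deviation of each gene group from its mean over the 6 pools, in log2 units (y axis), for alcohol pools 1 to 3 and control pools 1 to 3 (x axis). Class II and microglial markers are highest in alcohol pool 2 and control pool 1, while heavy chains lie between -0.44 and 0.35 and are above 0 in the alcohol pools.

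Within each kind of pool, 12 of the 32 genes had both alcohol pools above both control pools among the 4 cerebellar pools and alcohol pool 2 above control pool 1 (9.7% of rows at the floor). The reverse pattern was seen in 0 (17.4% of those rows). Of the 12, 10 were heavy chains: the 8 separated genes, RT1-M3-1 and RT1-O1. The others were B2m and Tapbp. No class II gene was among the 12. The 8 separated heavy chains and Tapbp met this pattern by definition, since all their alcohol values lay above all control values. RT1-CE7 and RT1-N2, which chose the set, are among these. Only RT1-M3-1, RT1-O1 and B2m are therefore added by this count, and nothing is read from its share. The median difference of the 32 genes was 0.24 over the 4 pools, with 24 higher, and 0.55 in the pair, with 31 higher. Over the 15882 rows at the floor it was -0.03 over the 4 pools, with 6968 higher, and -0.03 in the pair, with 6996 higher. The pair is 1 pool against 1 pool, so its count of genes describes a single contrast without replicates. In the heavy chains the median was 0.35 over the 4 pools and 0.55 in the pair.

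**Figure D5:**
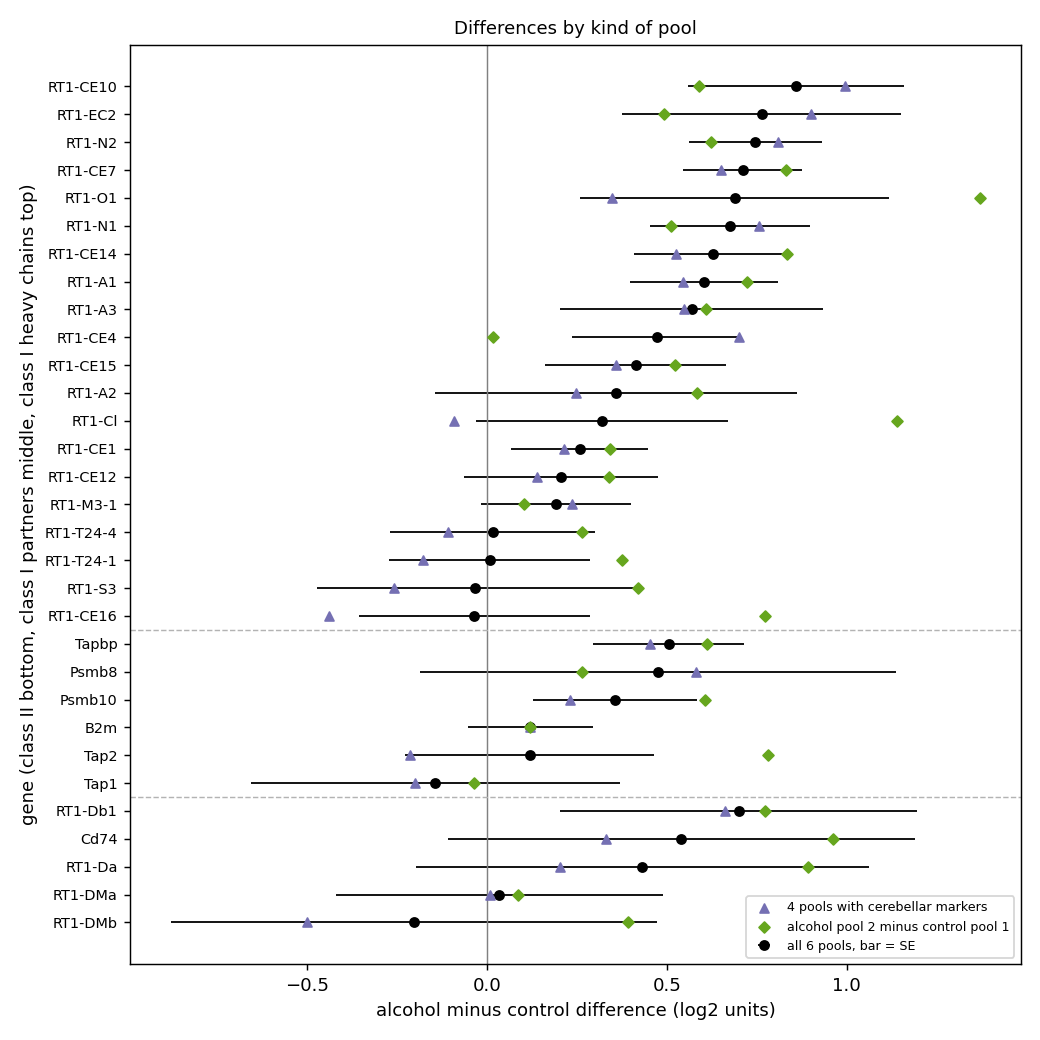
Alcohol minus control difference in log2 units (x axis) for 31 genes (rows) over all 6 pools (black, bar = SE), over the 4 cerebellar pools (purple triangles) and for alcohol pool 2 minus control pool 1 (green diamonds). For RT1-CE7 and RT1-N2 all 3 values lie between 0.62 and 0.83, while class II bars cross 0 except that of RT1-Db1.

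Lists of genes that act with the set had smaller median differences, and none of their genes was called (percent called 0). The lists were chosen with earlier results of these data known. Beside their counts, 42.1% of all rows at the floor on every array were higher with alcohol. Of 7 genes of class I peptide loading, 3 were higher and 4 lower, with a median difference of -0.00. Calr, the chaperone calreticulin, differed by 0.23 (SE 0.19), Canx, calnexin, by 0.05 (SE 0.18), Pdia3 by -0.02 (SE 0.23) and Hspa5 by -0.00 (SE 0.16). Of 9 measured genes of the standard proteasome and its activators, 0 were higher and 9 lower, with a median of -0.09. Psmb7 and Psmb5, the subunits that Psmb10 and Psmb8 replace in the immunoproteasome, differed by -0.09 (SE 0.18) and -0.09 (SE 0.18), Psma1 by -0.00 (SE 0.16) and Psme3 by -0.02 (SE 0.17).

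Of 7 genes of class II loading and endosomal proteolysis, 5 were higher and 2 lower, with a median of 0.05. Ctss, cathepsin S, which degrades the invariant chain, gave 12.56, 13.59 and 12.01 with alcohol, against 13.40, 12.38 and 12.22 in controls, with the 2 pools without cerebellar markers highest, as for class II. Ctsb, Cd63 and Lamp1 differed by 0.10 (SE 0.16), 0.06 (SE 0.16) and -0.01 (SE 0.27).

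Of 9 regulators of MHC genes at the floor, 3 were higher and 6 lower, with a median of -0.07. Rfxap, a subunit of the factor that binds the X box, differed by 0.02 (SE 0.18), and the NF-Y subunits Nfyb and Nfyc by -0.07 (SE 0.16) and 0.03 (SE 0.45). Creb1 differed by -0.10 (SE 0.29). Nlrc5, the activator of class I transcription, was under the floor on all arrays.

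Interferon genes read higher with alcohol more often than not. Of 22 at the floor on all arrays, 19 were higher and 3 lower, with a median of 0.20 and 0 with separated groups. Of all such rows, 42.1% were higher, and 2.71% lay above and 4.16% below without overlap, so the 0 is near the background. Over the 4 cerebellar pools 14 of the 22 were higher, with a median of 0.14, and in the pair 19 were higher. The genes of this list with the highest levels were Jak1, Ifnar1, Irf2 and Jak2, which carry or answer the interferon signal. They differed by -0.11 (SE 0.17), 0.05 (SE 0.18), 0.17 (SE 0.20) and -0.03 (SE 0.18). Oas1a and Usp18, interferon-induced genes picked here with their values known, had differences of 0.89 (SE 0.68) and 0.85 (SE 0.55) whose groups overlapped. Oas1a gave 7.82, 8.19 and 5.81 with alcohol, against 7.06, 5.74 and 6.34 in controls, and Usp18 gave 7.85, 8.26 and 6.25 with alcohol, against 6.48, 7.11 and 6.21 in controls. In both, alcohol pools 1 and 2 were high and alcohol pool 3 was not. Of 5 genes of costimulation and related receptors at the floor, 5 were higher and 0 lower (42.1% of all such rows were higher), with a median of 0.15. Fcgrt, the neonatal Fc receptor, a class I relative that pairs with B2m, differed by 0.02 (SE 0.30), Cd4 by 0.15 (SE 0.44), Icam1 by 0.04 (SE 0.49) and Cd80 by 0.36 (SE 0.45).

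RT1-Ke4 carries the prefix by position alone. It is now named Slc39a7, encodes a zinc transporter, and gave 10.20, 10.09 and 10.13 with alcohol, against 10.01, 10.40 and 9.86 in controls. Its groups overlapped, with a difference of 0.05 (SE 0.20).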

How the data were processed

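The data are 6 NimbleGen single-colour arrays, 1 for each pool. The authors deposited a linear RMA intensity for each row, per the file headers. The submitters' processing notes name RMA with no version. The genome build and scanner software are not given in the sources used here. Each file held 26420 entries. One entry of random-sequence control probes, whose intensity was 23.3 to 25.5, was left out. Median intensity was 213.2 to 232.8 per array, and the number of arrays limits the precision. The deposited value table holds 18107 rows, those with an intensity of 50 on at least 3 arrays.

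Values were taken to log2 with no added normalization and fitted with limma 3.58.1 in R 4.3.3 (lmFit, eBayes, group as the only term, two-sided, Benjamini-Hochberg over 26419 rows, threshold 0.05). The fit was tested on simulated data with no difference in tissue between pools. Their spread was capped below that of genes such as Cd74 (SD 1.02 with alcohol and 0.92 in controls). The simulation therefore does not show how many real differences the fit would find at the spread seen here. With 3 pools against 3, single genes rest on this model. Python 3.11.15, pandas 2.3.3, numpy 2.4.6 and matplotlib 3.10.9 prepared tables and plots. Names come from the files and from RefSeq by gene identifier. Ciita is listed under its older symbol C2ta. A further 4 rows named RT1- only in current RefSeq were not members and lay under the floor on all arrays. Members and lists were chosen with earlier results of these data known. Pool values are given mainly for members at the floor on all arrays, and those of members partly under it were picked with their values known. From each related list, up to 4 genes with the highest mean were named, plus any at the floor with separated groups. Ttr comes from that last clause, and Pcp2, Tph2, Flt3, Mrc1, Oas1a and Usp18 were picked with their values known. The kappaB and interferon patterns were shortened by 1 base after a first search with longer forms. Listed genes not found on the array were Psma3, Fcer1g, Cd79a, Hba1 and Hoxa3. The values of 1 listed marker are not reported here.

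Same-numbered alcohol and control pools deviated from their group means with correlations of -0.63, -0.68 and 0.60. Alcohol pool 2 and control pool 1, the pools without cerebellar markers, gave 0.84. Since these 2 pools carry different numbers, the correlations cannot show whether the numbers pair the pools. The alternatives tried were the value table, median centring, quantile normalization, a filter on dim rows, array weights, trended and robust moderation in eBayes, leaving out each pool, the replicate block, a term for the 2 pools without cerebellar markers, each kind of pool alone, and the mean of all rows of a gene.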

Additional observations from a re-analysis of the deposited data

How the results depend on the processing

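In every fit with a test, 0 rows and 0 members passed the threshold, and alcohol pool 2 against control pool 1 alone gives values with no test. The smallest adjusted p among members was 0.23, with array weights in limma, and over the other fits it ranged up to 1.00. The median difference of the members was 0.36 and moved by more than the spread between pools when only alcohol pool 2 was set against control pool 1 (0.51) and without alcohol pool 2 (0.16). Leaving out each pool in turn gave medians of 0.16 to 0.46 and 36 to 44 members higher with alcohol. Over the 4 pools with cerebellar markers the median was 0.23 with 38 higher, and with array weights it was 0.25 with 42 higher. The cause of these shifts was not tested. With the replicate number as a block, the median was 0.36, 40 members were higher and 0 were called. Each number occurs once per group, so the block cannot change the differences, and the same median and count carry no information. Whether the numbers pair the pools is not known, so the block fit is a check of the calls only.

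Leaving out 1 pool moved RT1-CE7 between 0.67 and 0.79, RT1-N2 between 0.64 and 0.82, Cd74 between -0.03 and 0.94, RT1-Da between -0.16 and 0.83, RT1-DMb between -0.86 and 0.44, RT1-Db1 between 0.29 and 1.04 and Tap1 between -0.59 and 0.24. Of 32 members at the floor on all arrays, 7 moved by over 1 SD between pools in the pair without cerebellar markers and 0 under any other setting. That 0 was largely fixed in advance and is no measure of stability. Leaving out 1 pool cannot move a difference by over 1 such SD. The value table, dim filter, trended and robust moderation, replicate block and marker term return the same differences as the main fit. Direction turned in 6 of the 32 without control pool 1, in 6 without control pool 2, in 5 without alcohol pool 2 and in 4 over the 4 cerebellar pools. Median centring and quantile normalization put the median of all rows at 0.01 and -0.02. Brightness near the floor limits what can be said of the 15 members that reached it on some arrays and the 6 that reached it on none.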
